A study of Mus musculus with 12 samples.

Results

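The genes described here are 10 genes of bone morphogenetic protein (BMP) signalling in mouse embryonic stem cells (ESCs), out of 51467 genes in the count table. They are listed by name and role, with no cutoff on measured values: the Id genes Id1, Id2, Id3 and Id4, the ligand Bmp4, the receptors Bmpr1a and Bmpr2, the signal transducers Smad1 and Smad5, and the inhibitory SMAD Smad6. Wild-type ESCs (the V6.5 line) were compared with ESCs of a Dgcr8 knockout (Dgcr8 KO) line. DGCR8 is the RNA-binding partner of the nuclease Drosha and is needed to make canonical miRNAs, so the comparison asks how these genes behave in cells without that class of miRNA. Both genotypes were grown in serum with LIF and 2i, the MEK inhibitor PD0325901 and the GSK3 inhibitor CHIR99021. Both received 500 uM 4-thiouridine (4sU), a uridine analogue, for 30 min. The RNA was then divided into rRNA-depleted total RNA, a measure of steady-state levels, and captured 4sU RNA, a measure of nascent transcription. Each of the 4 groups held 3 libraries, 12 in all. Each genotype was 1 cell line, and the labels do not say whether replicates were separate cultures, so p-values measure only the spread between these libraries, which may be technical.

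BMP ligands bind a complex of type I and type II serine/threonine kinase receptors, which phosphorylate SMAD1 and SMAD5. These enter the nucleus with SMAD4 and act at GC-rich and SMAD-binding elements, and the Id genes are classical direct targets. Id proteins are helix-loop-helix proteins without a DNA-binding region that hold E proteins in inactive dimers, and SMAD6 is a feedback inhibitor whose gene is itself a BMP target. In mouse ESCs grown with LIF, BMP from serum or added to the medium is known to sustain self-renewal through Id genes.

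Library totals were 6873708 to 9295245 counts in wild-type and 7184551 to 9215024 in Dgcr8 KO total RNA, and 4593914 to 6005526 and 4775267 to 4998675 in the corresponding 4sU libraries. Dgcr8 itself, counted over its whole gene, lay at 101, 111 and 92.5 CPM (counts scaled to library size) in wild-type total RNA and at 33.6, 34.1 and 32.0 CPM in Dgcr8 KO, which matches the labels. In 4sU RNA it lay at 110, 118 and 107 CPM against 71.2, 77.3 and 86.8 CPM. A gene is said to be called where its adjusted p from limma-voom was below 0.05 and its log2 change beyond 1, and to pass the p limit where the former held alone. Summed ESC markers (Pou5f1, Nanog, Sox2 and 4 others) lay between 4463 and 4573 CPM in total RNA of both genotypes, and at 5299 to 5395 CPM in wild-type and 6043 to 6701 CPM in Dgcr8 KO 4sU RNA. None of the 7 was called by limma-voom. In total RNA 3 passed the p limit higher and 4 lower (27.2% and 36.7% of all tested genes), opposite changes within near-equal sums. In nascent RNA 6 passed it higher (28.3% of all tested genes), and in stability 5 passed it lower (11.1%). Fibroblast markers, with Postn and Dcn at 0 throughout, summed to at most 3.97 CPM and trophoblast markers to at most 4.20 CPM in any library. Summed mesoderm markers were 164.9 to 172.2 CPM in wild-type and 287.4 to 319.3 CPM in Dgcr8 KO total RNA. Nearly all of that sum was Lefty2, a Nodal target (158.7 ± 3.59 and 298.8 ± 17.4 CPM, log2 change 0.91), while Eomes lay at 7.72 and 5.95 CPM and T at 0.54 and 0.0481 CPM. Neuroectoderm markers summed to 101.1 to 109.9 CPM in wild-type and 69.9 to 75.6 CPM in Dgcr8 KO total RNA, led by Nes (log2 change -0.73, adjusted p = 2.72e-10). Primitive endoderm markers summed to 9.05 to 12.9 CPM in total RNA, where Pdgfra was called higher (0.95 to 4.54 CPM, limma-voom adjusted p = 1.54e-05). Pdgfra held only 3 to 11 reads in wild-type total and 6 to 14 in wild-type 4sU libraries. It was tested because of its Dgcr8 KO level, so the filter partly sets this rise. In nascent RNA its change did not pass by limma-voom (log2 change 0.87, adjusted p = 0.0591, edgeR 0.0341). Dab2 (1.99 and 0.0914 CPM) and Sox17 (1.49 and 0.41 CPM) were too low to test. The part of these marker differences in the results below was not tested, and in such bulk samples more cells with a transcript and more transcript per cell cannot be told apart.

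The miR-290 and miR-302 clusters, known from ESCs and early differentiation, are canonical miRNAs whose production needs DGCR8. Their shared seed is shown because the search for matches in the 10 transcripts rests on it, and miRNA levels were not measured here. The mature sequences below are from RefSeq (GRCm38.p6), 5′ to 3′, with the seed (bases 2 to 8) in capitals. Of 7 such miRNAs found in the table, 5 carry the seed AAGUGCU, as miR-294, miR-295 and miR-302b do here, while miR-290a ends its seed in C.
miR-294-3p: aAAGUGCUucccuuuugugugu
miR-295-3p: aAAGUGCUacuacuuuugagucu
miR-302b-3p: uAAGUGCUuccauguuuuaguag
miR-290a-3p: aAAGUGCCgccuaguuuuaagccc

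The hexamer GCACTT, which pairs with the AAGUGC common to these seeds, was present in the longest annotated 3′ UTR of 4 of the 10 genes, against 34.0% of 11816 tested protein-coding genes. Id1, Id2 and Id3 had none. Bmpr2 and Smad5 had 3 each, in long 3′ UTRs of 8529 and 4899 bases, and Smad6 and Id4 had 1 each. To the seed AAGUGCU, Smad5 alone among the 10 held a longer match, the 7-base AGCACTT and the 8-base AGCACTTA. Of all genes 3.68% held the latter. Longer matches to the other seeds were not counted. A G stands before the Id4 hexamer and before a Bmpr2 hexamer, which makes a 7-base match to the miR-290a seed. A T stands before the other Bmpr2 hexamers and before the Smad5 hexamer not shown. This T makes a 7-base match to AAGUGCA, the seed of miR-291b, another miRNA of the family. The single Id4 hexamer lay beyond the 3′ end of Id4 as the deposited table counts it. Windows of 29 bases around the longer Smad5, the Smad6 and the first Bmpr2 matches are given on the transcript strand (GRCm38, the same build as mm10). Capitals mark the hexamer or its longer match to AAGUGCU, so that the paired and the flanking bases can be compared.
Smad5, chr13:56741475-56741503 (+ strand): gtcagtgctcgAGCACTTAgcaggcatcg
Smad5, chr13:56740747-56740775 (+ strand): acttccctggcAGCACTTgggtccctgtc
Smad6, chr9:63953275-63953303 (- strand): aacaagaaagacGCACTTtggcttgtaat
Bmpr2, chr1:59870674-59870702 (+ strand): tttttaagttttGCACTTttgtttagtct

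The AU-rich heptamer TATTTAT, a core of elements known for rapid mRNA decay, was in the 3′ UTR of 6 of the 10 genes, against 30.7% of genes. Bmpr2 held 4, Id2 and Bmp4 held 2 each, Id4, Smad5 and Smad6 held 1 each, and Id1 and Id3 held none. The Id4 heptamer, like its hexamer, lay beyond the 3′ end of Id4 as the deposited table counts it. Both Id2 windows are shown with the heptamer in capitals, since Id2 was the only gene among Id1, Id2 and Id3 with a match.
Id2, chr12:25094355-25094384 (- strand): ctgtgataccgtTATTTATgagagactttc
Id2, chr12:25094106-25094135 (- strand): atgctgtgtataTATTTATatataaatata

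Promoters are shown for Id2, Id3 and Smad6, 3 genes whose nascent RNA was higher in Dgcr8 KO (values follow), over 250 bases before and 50 after the RefSeq start (GRCm38.p6), on the gene's own strand. Capitals mark motifs known from SMAD binding, searched on both strands: GGCGCC, the letters GTCTG or CAGAC, and the palindrome GTCTAGAC. The Id2 window held GGCGCC (in 11.9% of 32851 promoters), the Id3 window held GTCTG and CAGAC (either in 49.6%), and the Smad6 window held GTCTAGAC (in 0.213%). GGCGCC was also in the windows of Id4, which rose in nascent RNA, and of Bmpr1a, Bmpr2 and Smad5, which did not pass the p limit higher. CAGAC was in that of another Smad5 start, so GGCGCC and CAGAC were not limited to genes that rose. Among the windows of these genes only that of Smad6 held GTCTAGAC. The Id1 promoter is not used here. The RefSeq starts of Id2 and Id3 lie 1048 and 325 bases inside the gene starts of the deposited table.
Id2, chr12:25096043-25096342 (- strand): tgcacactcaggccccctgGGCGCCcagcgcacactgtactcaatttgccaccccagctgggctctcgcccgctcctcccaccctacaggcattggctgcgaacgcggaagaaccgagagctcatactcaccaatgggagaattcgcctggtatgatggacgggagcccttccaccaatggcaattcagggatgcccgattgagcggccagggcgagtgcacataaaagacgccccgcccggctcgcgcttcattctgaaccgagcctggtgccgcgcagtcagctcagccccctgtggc
Id3, chr4:136143572-136143871 (+ strand): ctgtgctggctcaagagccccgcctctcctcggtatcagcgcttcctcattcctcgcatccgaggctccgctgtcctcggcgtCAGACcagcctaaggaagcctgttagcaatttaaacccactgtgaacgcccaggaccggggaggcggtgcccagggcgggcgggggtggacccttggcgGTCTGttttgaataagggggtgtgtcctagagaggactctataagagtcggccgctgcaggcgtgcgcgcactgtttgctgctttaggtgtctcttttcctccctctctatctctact
Smad6, chr9:64022010-64022309 (- strand): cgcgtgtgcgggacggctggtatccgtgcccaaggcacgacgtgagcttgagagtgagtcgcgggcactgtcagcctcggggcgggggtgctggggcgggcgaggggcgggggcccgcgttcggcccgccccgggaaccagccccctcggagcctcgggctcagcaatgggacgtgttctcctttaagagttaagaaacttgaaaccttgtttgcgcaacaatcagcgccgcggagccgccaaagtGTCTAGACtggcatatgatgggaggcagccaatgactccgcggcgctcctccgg

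Id1, Id2 and Id3 rose most of the 10, and Id1 (ENSMUSG00000042745, mm10 chr2:152736251-152737410, + strand) furthest. In total RNA the wild-type libraries held 2.50, 4.15 and 2.90 CPM of Id1 (16 to 34 reads) and the Dgcr8 KO libraries 16.9, 18.7 and 19.2 CPM. In 4sU RNA the wild-type libraries held 9.81, 8.37 and 13.9 CPM and the Dgcr8 KO libraries 136, 109 and 119 CPM. Every Dgcr8 KO library lay above every wild-type library in both kinds of RNA. Id1 was 5.65-fold higher in total RNA (log2 change 2.50, 95% interval 2.01 to 2.98, limma-voom adjusted p = 8.23e-11, edgeR adjusted p = 3.43e-14). It was 11.4-fold higher in nascent RNA (log2 change 3.51, interval 3.20 to 3.82, adjusted p = 1.08e-18 and 6.72e-23). Among 14033 tested genes its nascent change ranked 69th from the highest and its total change 251st.

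Id3 (chr4:136143497-136145392, + strand) was the most abundant of the family per length and the next most changed. Its total RNA libraries held 11.1, 10.5 and 10.5 CPM in wild-type and 31.5, 30.5 and 30.7 CPM in Dgcr8 KO. Its 4sU libraries held 74.8, 83.7 and 81.5 CPM in wild-type and 398, 313 and 356 CPM in Dgcr8 KO, again without overlap. The change was 2.90-fold in total RNA (log2 change 1.53, interval 1.25 to 1.82, adjusted p = 4.00e-11, edgeR 1.01e-13) and 4.43-fold in nascent RNA (log2 change 2.15, interval 2.00 to 2.30, adjusted p = 3.04e-21, edgeR 2.10e-23).

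Id2 (chr12:25093799-25097140, - strand) rose less. Its total RNA level was 12.3, 13.5 and 9.53 CPM in wild-type and 22.5, 23.2 and 17.5 CPM in Dgcr8 KO, and its 4sU level 49.2, 57.3 and 48.6 CPM against 123, 129 and 97.5 CPM. The groups did not overlap in either. In nascent RNA the 2.25-fold rise passed both limits (log2 change 1.17, adjusted p = 1.42e-11, edgeR 1.84e-12). In total RNA the 1.81-fold rise passed the p limit only (log2 change 0.86, interval 0.53 to 1.19, adjusted p = 2.52e-05, edgeR 3.41e-06).

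Id4 (chr13:48261427-48264036, + strand) passed the p limit in nascent RNA and not in total RNA, a difference between them that did not itself pass (adjusted p = 0.194). In total RNA its wild-type libraries held 9.05, 7.07 and 8.37 CPM and its Dgcr8 KO libraries 8.80, 8.17 and 9.67 CPM, groups that overlapped (log2 change 0.13, interval -0.22 to 0.48, adjusted p = 0.517). In 4sU RNA the values were 27.7, 20.9 and 24.2 CPM against 31.4, 39.1 and 36.0 CPM, a 1.45-fold rise that passed the p limit (log2 change 0.54, adjusted p = 0.000199, edgeR 0.000238). The deposited table counts 1660 exonic bases for Id4, against 3849 in its longest annotated transcript, so reads from the distal 3′ UTR were not in these values.

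**Figure D1:**
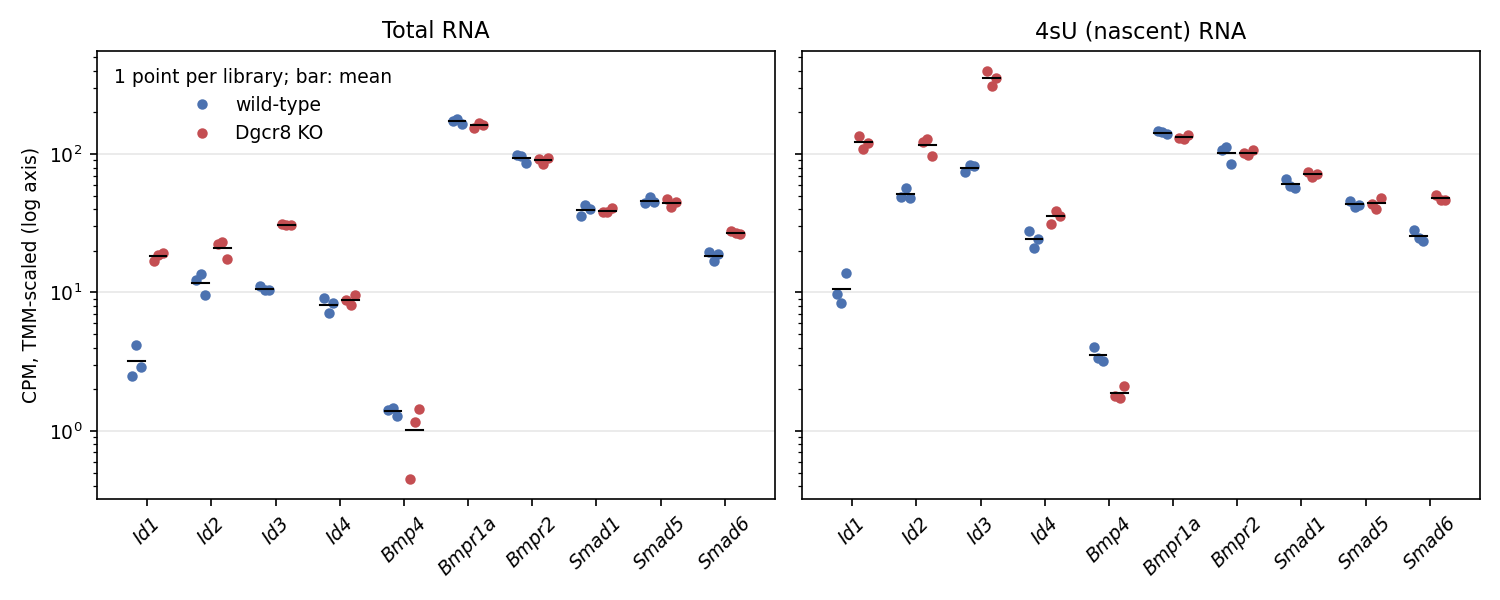
Level of each of the 10 genes in every library, as TMM-scaled CPM on a log axis, in total RNA (left) and 4sU RNA (right), with 1 point per library, blue for wild-type, red for Dgcr8 KO and a bar at the mean of 3. Id1, Id2, Id3 and Smad6 are separated between genotypes in both panels, Id4, Bmp4, Bmpr1a and Smad1 in the 4sU panel only, and Bmpr2 and Smad5 overlap in both.

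Smad6 (chr9:63953076-64022059, - strand), the feedback inhibitor, rose with Id1, Id2 and Id3. Its total RNA level was 19.5, 16.9 and 18.8 CPM in wild-type and 27.8, 26.9 and 26.3 CPM in Dgcr8 KO. Its 4sU level was 28.3, 24.9 and 23.5 CPM against 50.4, 46.9 and 46.8 CPM. The groups were apart in both, with a 1.47-fold rise in total RNA (log2 change 0.56, adjusted p = 1.64e-05, edgeR 1.27e-05) and a 1.87-fold rise in nascent RNA (log2 change 0.90, interval 0.70 to 1.11, adjusted p = 3.49e-09, edgeR 1.16e-09). Both passed the p limit and stayed under the limit on size.

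The ligand Bmp4 (chr14:46383520-46390669, - strand) was the least expressed of the 10. It entered the tests only through the wild-type 4sU libraries, the group where it was highest, so its difference is partly set by the filter and supports nothing here. It held 16 to 25 reads per library there (4.02, 3.35 and 3.20 CPM) and 9 to 11 reads in Dgcr8 KO 4sU RNA (1.80, 1.72 and 2.09 CPM). In total RNA it held 9 to 12 reads in wild-type and 4 to 10 in Dgcr8 KO. The log2 change was -0.88 in nascent RNA (interval -1.60 to -0.17, adjusted p = 0.0312, edgeR 0.0210) and -0.61 in total RNA (interval -1.45 to 0.24, adjusted p = 0.204), where the groups overlapped.

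The receptors and the receptor-activated SMADs moved little. Bmpr1a, the type I receptor for BMP2 and BMP4, held 172, 180 and 166 CPM in wild-type and 155, 168 and 162 CPM in Dgcr8 KO total RNA (log2 change -0.09, interval -0.20 to 0.02, adjusted p = 0.131). In nascent RNA its change was -0.12 (interval -0.24 to 0.01, adjusted p = 0.109), and it passed the p limit with DESeq2 (adjusted p = 0.0210), with RLE scaling (0.0170) and with upper-quartile scaling (0.0208). Its 4sU libraries did not overlap, at 147, 145 and 139 CPM against 130, 129 and 137 CPM. Bmpr2, the type II BMP receptor, held 97.9, 96.7 and 85.7 CPM in wild-type and 92.9, 85.0 and 93.5 CPM in Dgcr8 KO total RNA. Its log2 change was -0.04 in total RNA (interval -0.20 to 0.12) and 0.02 in nascent RNA (interval -0.15 to 0.19), with overlapping groups in both.

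Smad5 had total RNA levels of 44.2, 48.7 and 45.1 CPM in wild-type and 47.1, 41.7 and 45.2 CPM in Dgcr8 KO. Its log2 change was -0.04 in total RNA (interval -0.21 to 0.12) and 0.01 in nascent RNA (interval -0.18 to 0.20), also with overlap, and it is the gene with the longest seed match above. Smad1 had a log2 change of -0.02 in total RNA (interval -0.20 to 0.15, adjusted p = 0.815). Its nascent RNA, at 65.6, 59.0 and 57.3 CPM in wild-type and 74.4, 67.9 and 72.1 CPM in Dgcr8 KO, rose 1.18-fold (log2 change 0.23, adjusted p = 0.0142, edgeR 0.0138). By DESeq2 this rise did not pass (adjusted p = 0.110).

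Counted over all 10 genes, 2 were called higher in total RNA (Id1 and Id3) and 3 in nascent RNA (Id1, Id2 and Id3), and none was called lower by limma-voom, edgeR or DESeq2. At an unadjusted p under 0.05 none of the 10 was lower in total RNA, and in nascent RNA 1 was by limma-voom and edgeR and 2 by DESeq2 (of all tested genes, 38.4% in total RNA and 30.4% in nascent RNA by limma-voom). Over all tested genes 9.33% were called higher in total RNA and 9.5% in nascent RNA. With the p limit alone, 4 of the 10 rose in total RNA (27.2% of all tested genes did) and 6 rose in nascent RNA (28.3%). DESeq2 gave 5 higher in nascent RNA, without Smad1 (3366 of 14033 tested genes). Only Bmp4 fell in nascent RNA (28% of tested genes did), in place of which DESeq2 gave Bmpr1a. The groups did not overlap, with Dgcr8 KO higher, for 4 genes in total RNA (29.2% of tested genes) and 6 in nascent RNA (29.6%). The median log2 change of the 10 was 0.05 in total and 0.39 in nascent RNA, beside -0.09 and -0.02 over all tested genes. All 10 passed the filter, Bmp4 in 3 libraries, Id1 in 10 and the other 8 in all 12.

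**Figure D2:**
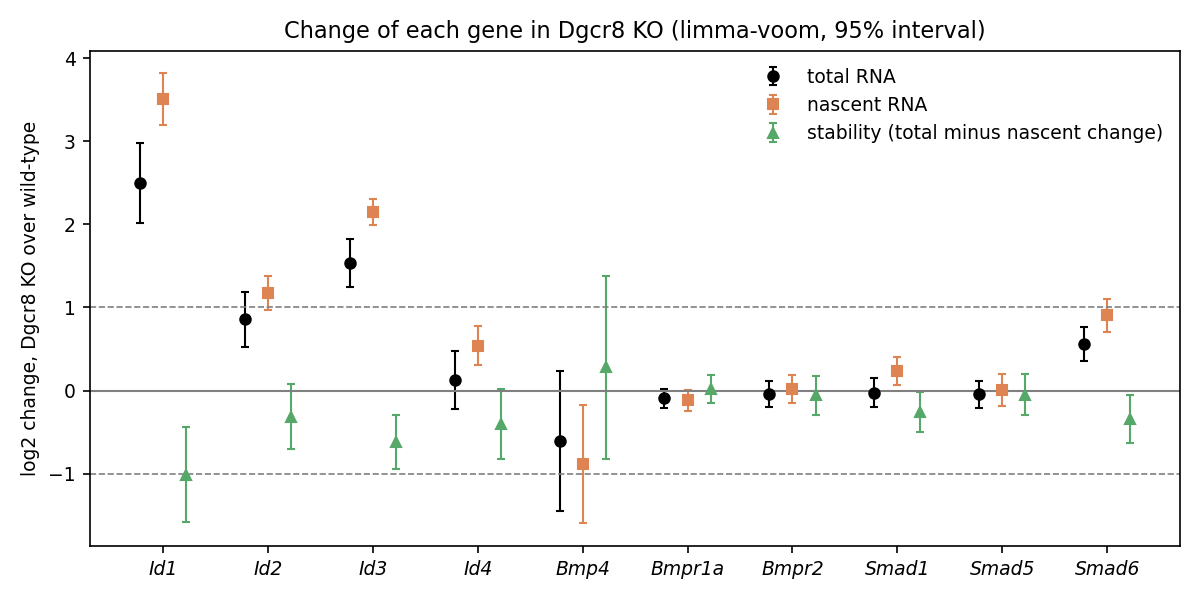
Log2 change of each gene in Dgcr8 KO over wild-type with its 95% interval from limma-voom, for total RNA (black circles), nascent RNA (orange squares) and stability (green triangles), with dashed lines at the limit of 1 used for a call. With TMM scaling the nascent change is above the total change for 8 of the 10 genes, all but Bmp4 and Bmpr1a. The median stability change of all tested genes is also negative with this scaling (-0.09). With DESeq2 or RLE scaling the stability changes of Bmpr2 and Smad5 turn positive, so the 8 is not particular to these genes. The intervals of Bmpr1a, Bmpr2 and Smad5 cross 0 in all 3 contrasts.

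The change in stability is the change in total RNA less the change in nascent RNA. It was negative for Id1, with a log2 change of -1.01 (interval -1.59 to -0.44, adjusted p = 0.0116, edgeR 0.00579), a relative fall of 2.02-fold. It was -0.61 for Id3 (interval -0.94 to -0.29, adjusted p = 0.00656, edgeR 0.00227). Id1 was the only one of the 10 past both limits, against 0.969% of all genes called lower, and Id1 and Id3 passed the p limit, against 11.1% of genes lower. The Id1 call is narrow. Its change was short of the limit on size under DESeq2 (-0.91), RLE scaling (-0.92), upper-quartile scaling (-0.95), scaling by library size alone (-0.99) and a replicate block within genotype (-0.997). Without wild-type replicate 2 its change was -0.67 (adjusted p = 0.211), and without Dgcr8 KO replicate 1 it was -0.88 (adjusted p = 0.0349), under the limit on size. For Id3 the adjusted p was 0.0547 without wild-type replicate 1 and 0.127 with no filter beyond 1 count, where that of Id1 was 0.0690. Id2 (-0.31, adjusted p = 0.293), Id4 (-0.41, adjusted p = 0.194) and Smad6 (-0.35, adjusted p = 0.0969) had negative values that did not pass, and the receptors and Smad5 lay between -0.06 and 0.02. Smad1 lay at -0.26 (adjusted p = 0.139) and Bmp4 at 0.28 (interval -0.83 to 1.38).

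Within each genotype, the ratio of total to 4sU signal ranks transcripts by relative stability, here on the log2 scale and set against the median of all tested genes. Id3 had the lowest ratio of the 10, at -2.83, -3.09 and -3.04 in wild-type (mean -2.99 ± 0.14, SD, n = 3), below all but 6.56% of genes, and -3.51 ± 0.16 in Dgcr8 KO, below all but 2.87%. Id2 lay at -2.23 ± 0.18 and -2.46 ± 0.00384 in the 2 genotypes, and Id4 at -1.65 ± 0.04 and -1.98 ± 0.23. Id1 had values of -2.02, -1.11 and -2.32 in wild-type and -3.01, -2.54 and -2.62 in Dgcr8 KO. Wild-type replicate 2 was the high one of these, from 40 reads in 4sU and 34 in total RNA. The ratio of Bmp4 was -1.41 ± 0.13 in wild-type and spread from -1.91 to -0.51 in Dgcr8 KO, where its counts were lowest.

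The receptors and transducers had ratios nearer to the median gene. Bmpr1a lay at 0.18 ± 0.03 in wild-type and 0.30 ± 0.07 in Dgcr8 KO, Smad5 at -0.01 ± 0.13 and 0.03 ± 0.09, and Bmpr2 at -0.20 ± 0.12 and -0.17 ± 0.04. Smad1 and Smad6 were lower, at -0.71 ± 0.22 and -0.56 ± 0.14 in wild-type. In all, 8 of the 10 genes had a mean below the median gene in both genotypes. The Id genes are also short in the deposited table, with gene spans of 1160 to 3342 bases against a median of 23005. For Id4 the table's span, 2610 bases, is shorter than its longest annotated transcript of 3849 bases. Among the 1430 tested genes of at most 5000 bases the median ratio was -0.55 in wild-type and -0.77 in Dgcr8 KO, and Id3 was below all but 4.90% and 2.10% of them. The share of uridine, the base 4sU replaces, was 24.7%, 26.8%, 24.4% and 29.5% in the longest transcripts of Id1, Id2, Id3 and Id4, beside a median of 24.4% over genes. These transcripts held 286, 527, 312 and 1135 uridines, beside a median of 776, and the Id4 values include bases that the table does not count.

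**Figure D3:**
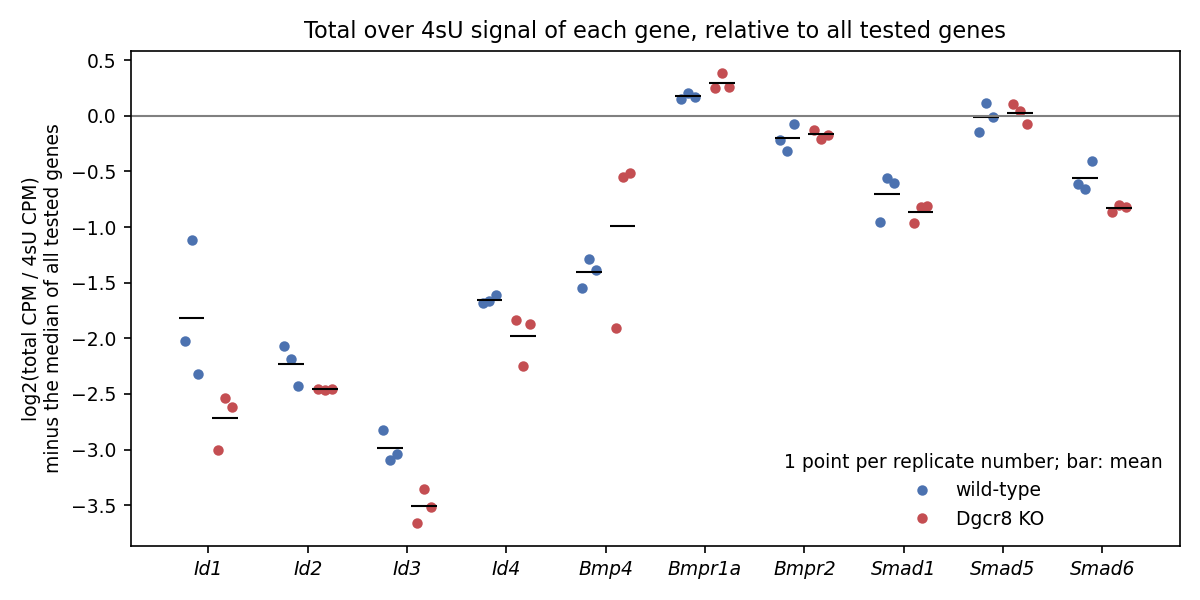
Log2 ratio of total to 4sU CPM of each gene, less the median of all tested genes, with 1 point per replicate number in wild-type (blue) and Dgcr8 KO (red) and a bar at the mean. The Id genes and Bmp4 lie under 0 in every replicate, Id3 lowest, while Bmpr1a lies above 0 in every replicate.

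Levels can be set against each other between genes only per length, as reads per kilobase of exonic length scaled by library (RPKM). In wild-type total RNA Bmpr1a led at 28.5 ± 1.14 RPKM, followed by Id3 (8.35 ± 0.28), Smad1 (7.65 ± 0.72), Bmpr2 (7.24 ± 0.52), Smad5 (6.41 ± 0.33) and Smad6 (6.20 ± 0.45). Neighbours in the order from Id3 to Smad6 overlapped, while Bmpr1a stood clear of Id3. Id4 (4.92 ± 0.61) and Id2 (4.84 ± 0.84) also overlapped, with Id1 (2.74 ± 0.74) and Bmp4 (0.67 ± 0.05) below them. In Dgcr8 KO total RNA Id3 (24.2 ± 0.41) came just under Bmpr1a (26.8 ± 1.06), and Id1 (15.8 ± 1.02) moved from ninth to the third place. In Dgcr8 KO 4sU RNA Id3 (278 ± 33.4), Id1 (105 ± 11.6) and Id2 (47.8 ± 6.84) all stood above Bmpr1a (21.9 ± 0.73), without overlap between neighbours.

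The make-up of the Id family moved with these changes. Summed over Id1 to Id4, total RNA held 20.9 ± 1.06 RPKM in wild-type and 53.9 ± 0.44 in Dgcr8 KO, and 4sU RNA held 107.6 ± 3.34 and 452.0 ± 42.2. Id1 held 13.1% ± 3.25 of this sum in wild-type and 29.2% ± 1.89 in Dgcr8 KO total RNA, and 8.54% ± 2.14 and 23.2% ± 0.43 in 4sU RNA. The share of Id4 went from 23.7% ± 3.40 to 9.93% ± 0.91 in total RNA. Id3 held the largest share in all 4 groups, from 40.1% in wild-type total RNA to 61.4% in Dgcr8 KO 4sU RNA.

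**Figure D4:**
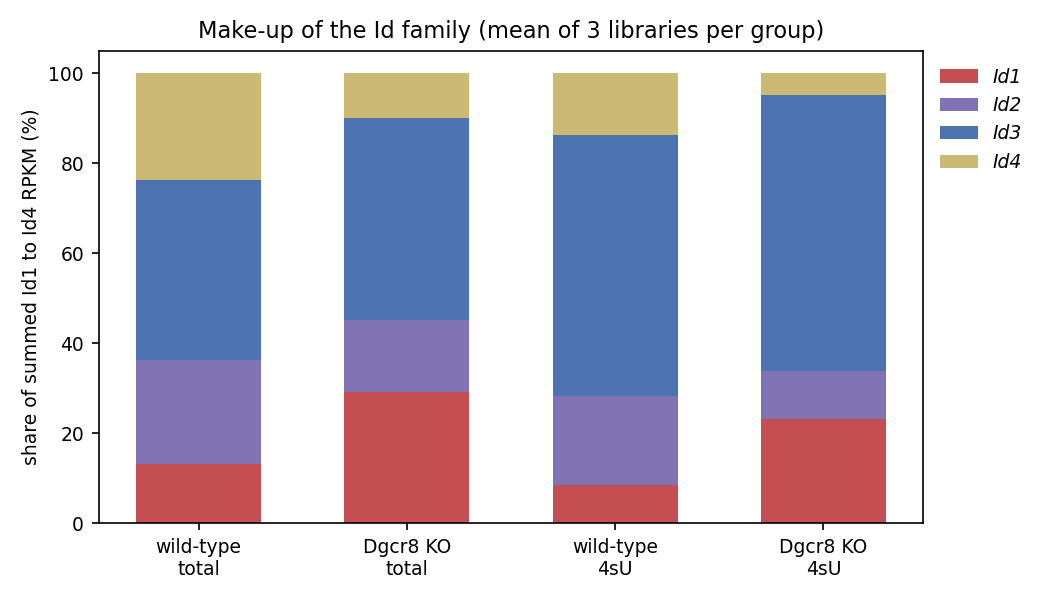
Share of the summed Id1 to Id4 RPKM held by each gene, as the mean of 3 libraries in each group, in percent. The Id1 part is larger in Dgcr8 KO than in wild-type in both kinds of RNA, and the Id2 and Id4 parts are smaller.

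A list of 59 other genes of BMP signalling was put together by hand, not from a database. It includes E proteins and transcription factors such as Klf2 that also respond to other signals. Of the 59, 33 were expressed well enough to be tested. In total RNA 6 of the 33 were called higher and 2 lower, and in nascent RNA 5 higher and 0 lower, beside 9.33% higher and 7.82% lower of all genes in total RNA, and 9.5% and 5.27% in nascent RNA. Without the limit on size, 9 were higher and 10 lower in total RNA (27.2% and 36.7% of all tested genes), and 13 higher and 6 lower in nascent RNA (28.3% and 28%). The median log2 change of the 33 was -0.07 in total and 0.08 in nascent RNA. In the change in stability none of the 33 was called by limma-voom, edgeR or DESeq2. Of all 14033 tested genes limma-voom called 111 higher and 136 lower. Past its p limit were 2 of the 33 lower and 0 higher, against 1557 lower (11.1%) and 704 higher of all tested genes. At an unadjusted p under 0.05 the change in stability was lower for 7 of the 33 by limma-voom and by edgeR and for 4 by DESeq2 (19.5%, 19.8% and 10.7% of all tested genes). In nascent RNA 6 were lower at that level by limma-voom and edgeR and 7 by DESeq2 (30.4%, 30.9% and 32.5% of all tested genes).

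Among extracellular inhibitors, 1 of 5 tested genes was called higher and 1 lower in total RNA. Fstl1, a secreted follistatin-like glycoprotein, went from 152.6 ± 7.47 to 886.7 ± 24.6 CPM (log2 change 2.54 in total and 2.59 in nascent RNA, adjusted p = 1.21e-26 and 1.07e-21). Dand5, a secreted antagonist of the Cerberus family, had log2 changes of -1.14 in total RNA (adjusted p = 0.00110) and -0.73 in nascent RNA (adjusted p = 0.0269), from 11 to 36 reads per library. It reached 3 CPM in all 6 wild-type libraries and in 2 of 6 Dgcr8 KO libraries, so it was tested only because of its wild-type level and its fall is partly set by the filter. Nog, which encodes the BMP antagonist Noggin, was too low to test, at 0 to 4 reads in total RNA.

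Among 6 tested receptors and co-receptors, only Rgma, a BMP co-receptor, was called, 3.38-fold higher in total RNA (6.46 ± 1.08 to 22.0 ± 0.88 CPM, adjusted p = 1.02e-11) and 2.92-fold in nascent RNA (adjusted p = 3.96e-14). The type I receptor gene Acvr1 had a log2 change of 0.12 in total RNA (interval -0.19 to 0.43, adjusted p = 0.514). Of 2 tested ligands, Bmp8a was called higher in total RNA from 11 to 35 reads per library (log2 change 1.08, adjusted p = 0.00308). It reached 3 CPM in all 6 Dgcr8 KO libraries and in 2 wild-type libraries, so the filter partly sets this rise. Bmp7 fell past the p limit (log2 change -0.70, adjusted p = 4.71e-05), and Bmp2, at 1 to 5 reads in total RNA, was not tested.

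None of the 9 receptor and SMAD inhibitors was called in either kind of RNA by limma-voom, edgeR or DESeq2. At an unadjusted p under 0.05 limma-voom gave 3 higher and 4 lower in total RNA, and 5 higher and 2 lower in nascent RNA (28.4% and 38.4%, then 30.3% and 30.4%, of all tested genes). Smad7, the other inhibitory SMAD, fell past the p limit, from 99.8 ± 7.40 to 60.9 ± 5.01 CPM in total RNA (log2 change -0.70, adjusted p = 6.60e-09) and by 0.56 on the log2 scale in nascent RNA (adjusted p = 3.47e-09), the direction opposite to Smad6. Smad4, the partner of SMAD1 and SMAD5, had a log2 change of -0.17 in total RNA (adjusted p = 0.0408) and -0.11 in nascent RNA (adjusted p = 0.305). Smad9 was not tested, at 3 to 15 reads in total RNA.

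Among 7 tested transcription factors of the list, 2 were called higher and 1 lower in total RNA. Msx2, a homeobox gene induced by BMP in several tissues, went from 3.35 ± 0.61 to 9.32 ± 0.45 CPM (log2 change 1.44, adjusted p = 4.37e-07; 1.34 in nascent RNA, adjusted p = 1.14e-10). Klf2, a Krüppel-like factor of naive pluripotency, rose 2.77-fold in total and 3.03-fold in nascent RNA (adjusted p = 1.29e-17 and 3.24e-21). Gata2 was called lower in total RNA from 1 to 24 reads per library (log2 change -1.73, adjusted p = 0.00723), with a nascent change of -0.07 (adjusted p = 0.862). Of 3 E proteins, the partners that Id proteins bind, only Tcf12 was called, 2.23-fold higher in total and 2.19-fold in nascent RNA (adjusted p = 1.25e-16 and 6.28e-15).

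**Figure D5:**
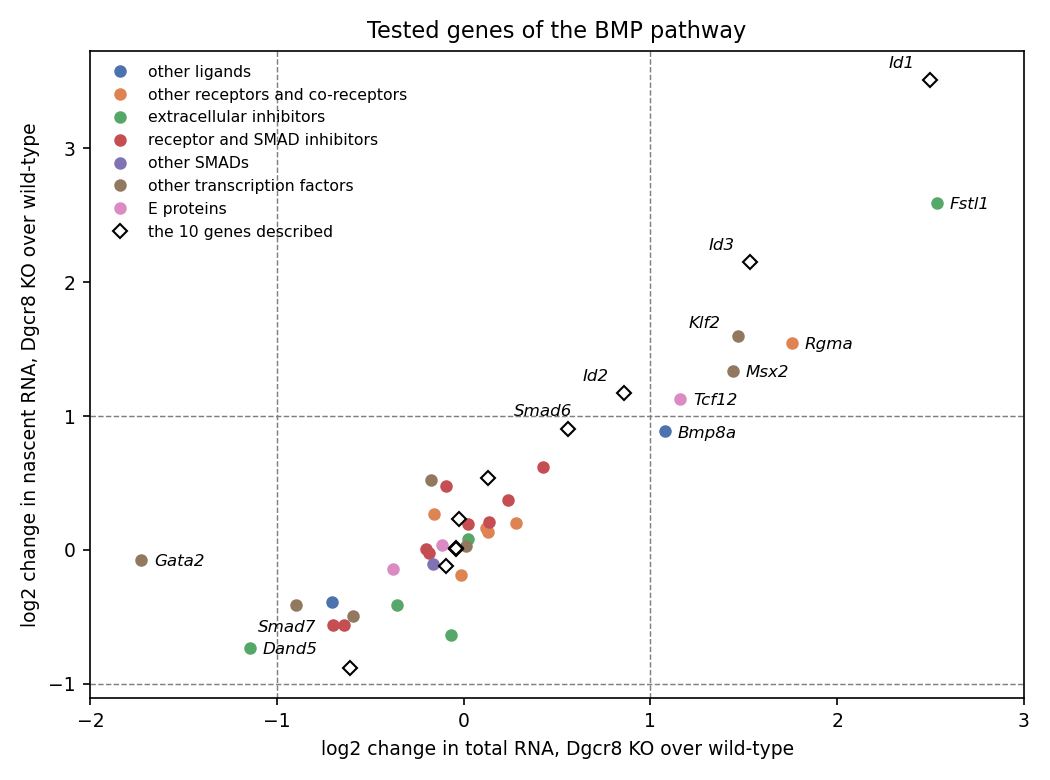
Log2 change in total RNA (horizontal) against nascent RNA (vertical), Dgcr8 KO over wild-type, for the 33 other tested genes of the pathway (filled circles, coloured by role) and the 10 genes described (open diamonds), with dashed lines at 1 and -1. Id1, Id3, Fstl1, Klf2, Rgma, Msx2 and Tcf12 lie past 1 on both axes, and Smad7 and Dand5 lie in the lower left.

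Among the tested genes whose log2 CPM over the 12 libraries was most like that of Id1 were Dusp14, Mt1, Trim16 and Zfp27, with Pearson r of 0.994, 0.988, 0.988 and 0.988. Dusp14, a dual-specificity phosphatase, had log2 changes of 1.34 in total and 1.81 in nascent RNA. Smad6 ranked 76th in likeness to Id1 (r = 0.966), Id3 453rd (r = 0.908) and Id2 881st (r = 0.849) of 14032 genes. For Bmp4 the most alike were Arv1, Snai2, Pura, Gm44067 and Grpel2, with r from 0.935 to 0.959. Their log2 changes ran from -0.20 (Pura) to -1.72 (Snai2) in total RNA. In nascent RNA they ran from -0.21 (Pura) to -1.43 (Snai2). These correlations describe 12 libraries that fall into 4 groups and share the contrast between total and 4sU RNA. Genes picked for likeness to a gene tend to share the direction of its change by that choice. The Bmp4 profile rests on 4 to 25 reads per library and is partly set by the filter, so the list for Bmp4 supports nothing here.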

How the data were processed

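The authors deposited raw counts of reads for each gene. By their methods and the header of the table, reads (single-end, stranded KAPA kits; which of 2 kits made which library is not given in the sources used here) were trimmed with Cutadapt 1.14, mapped uniquely to mm10 with STAR 2.5.3a and counted on the reverse strand with featureCounts 1.5.3 against GENCODE M14 basic without rRNA genes. Spike-in rows (92, with 1 count in all) were left out. Counts carry no molecular identifiers.

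As in the study, genes with at least 3 CPM in at least 3 libraries (14033) were kept and fitted in limma (here 3.58.1, R 4.3.3) with an interaction of library type and genotype. TMM scaling (edgeR 4.0.16), voom weights and 1 model of all 12 libraries were chosen here. CPM and RPKM printed here were computed from the deposited counts with these factors and the table's exonic lengths. P-values were Benjamini-Hochberg adjusted over all tested genes, and a call needed both a value below 0.05 and a log2 change beyond 1 in either direction. The edgeR quasi-likelihood test is printed beside limma, and DESeq2 1.42.0 was an alternative. A run of the model on simulated counts, with the same dispersion for every gene, was a check of the code only and bears on no result here. Same-numbered libraries of the 2 genotypes did not deviate together (correlations -0.07 to 0.07), so numbers were not treated as pairs between genotypes. For the ratios, total and 4sU libraries of 1 genotype and number were set side by side, since each extract was divided. No 2 replicates agreed within sampling noise.

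Coordinates of genes are those of the table (mm10, 1-based). 3′ UTRs came from GENCODE M21 (GRCm38), miRNAs and promoters from RefSeq (GRCm38.p6). The strand-specific counting keeps antisense neighbours of Id4, Bmp4 and Bmpr1a apart, and Smad5 shares 100 exonic bases with Gm27301 on its own strand. Genes named were all 10 members, every pathway gene called in any contrast, 7 well-known pathway genes and the 5 genes most like Id1 and Bmp4, of which 1 is not reported here. The members and lists were chosen with earlier results of these data known. Alternatives were other scalings, tools, filters, the replicate block and leaving out each replicate.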

Additional observations from a re-analysis of the deposited data

Results flagged for a closer look

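The change in Dgcr8 KO differed between total and nascent RNA for 2 of the 10 genes, by the interaction term of limma-voom. Over all 14033 tested genes 1557 (11.1%) were lower and 704 higher by this term at the same p limit, so such a difference is not particular to these genes. For Id1 the difference was -1.01 on the log2 scale (2.50 in total against 3.51 in nascent RNA, adjusted p = 0.0116). For Id3 it was -0.61 (1.53 against 2.15, adjusted p = 0.00656). Both genes rose in both kinds of RNA in 3 of 3 libraries, and the difference is in size only. Without wild-type replicate 2 the Id1 difference was -0.67 (adjusted p = 0.211), and without wild-type replicate 1 the Id3 difference was -0.54 (adjusted p = 0.0547). The cause of these differences was not tested.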

How the results depend on the processing

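The counts of the 10 genes called in nascent RNA (3) and in total RNA (2) changed by more than 1.5 times only with the filter of 3 CPM in all 12 libraries, which leaves out Id1 and gives 1 in total RNA, and with no limit on the log2 change, which gives 7 and 4. Over the alternatives that could test it, the Id1 change lay between 2.37 and 2.70 in total and between 3.37 and 3.70 in nascent RNA, and that of Id3 between 1.51 and 1.59 and between 2.08 and 2.25, called in each. The 1 call in stability (Id1) became 0 with DESeq2, with RLE, upper-quartile or library-size scaling, with no filter beyond 1 count, with the 3 CPM filter in all 12 libraries and with the replicate block within genotype, and 2 with no limit on the log2 change. Leaving out 1 replicate at a time gave 0 to 1, the 0 coming without wild-type replicate 2 or Dgcr8 KO replicate 1. TMM and RLE scaling put the median stability change of all tested genes at -0.09 and -0.00257, and Id1 at -1.01 and -0.92.

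A replicate block across genotypes left the counts of genes called at 2, 3 and 1 in total RNA, nascent RNA and stability, with Id1 at -1.01 in stability, while the block within genotype gave Id1 -0.997, just inside the limit on size. Same-numbered libraries correlated by no more than 0.08 in deviation, and the main tests did not pair them. Total and 4sU libraries of 1 genotype and number are taken to come from 1 divided extract. The main stability p-values leave this pairing out, while the total to 4sU ratios and the block within genotype keep it.

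For the other genes of the pathway, the filter of 3 CPM in all 12 libraries gave 4 called in total RNA in place of 8, no filter beyond 1 count gave 8 in nascent RNA in place of 5, and no limit on the log2 change gave 19, 19 and 2. Leaving out 1 replicate gave 0 to 1 in stability, the 1 being Gata2 without wild-type replicate 1. Counting 7-base or 8-base matches to the seed AAGUGCU in place of the hexamer gave 1 gene in place of 4.

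Changes near 0 that never passed a call turned sign. Bmpr2 turned in total RNA with library-size scaling (0.011) and with 1 replicate left out (-0.11 to 0.0047), in nascent RNA with DESeq2 (-0.053), RLE (-0.040), upper-quartile scaling (-0.032) and 1 replicate left out (-0.11 to 0.080), and in stability with DESeq2 (0.039), RLE (0.030) and upper-quartile scaling (0.0079). Smad1 turned in total RNA with DESeq2 (0.0080), RLE (0.0068), library size (0.028), no filter beyond 1 count (0.0059) and 1 replicate left out (-0.095 to 0.030). Smad5 turned in total RNA with library size (0.0085) and 1 replicate left out (-0.084 to 0.0077), in nascent RNA with DESeq2 (-0.046), RLE (-0.049), upper-quartile scaling (-0.042) and 1 replicate left out (-0.040 to 0.079), and in stability with DESeq2 (0.035), RLE (0.037), upper-quartile scaling (0.014) and 1 replicate left out (-0.12 to 0.013). Bmpr1a in stability ran from -0.031 to 0.043 with 1 replicate left out. The nascent change of Smad1 lost the p limit in 4 of 15 alternatives and that of Bmp4 in 4 of 11. Of 445 alternative values 401 kept direction and side of the p limit, 12 lost it, 5 gained it and 27 turned sign, and the causes were not tested.

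With 4 to 34 reads of Id1 or Bmp4 in some libraries, counting error limits their ratios, and neither miRNA abundance nor SMAD activity was measured in these libraries.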
